A study of Mus musculus with 2 samples.

Results

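CC chemokines are small secreted proteins that draw leukocytes along a gradient, and their receptors are G protein-coupled receptors on the leukocyte surface. The genes described here are 7 ligands (Ccl2, Ccl3, Ccl4, Ccl5, Ccl6, Ccl7 and Ccl9) and 2 receptors (Ccr1 and Ccr2), chosen by gene symbol, which makes 9 of the 55536 annotated genes in the tables. They were measured in 2 libraries of total RNA, depleted of ribosomal RNA, from the nucleoplasmic fraction of macrophages grown from C57BL/6J bone marrow. The cells of both libraries had received lipid A, the membrane-anchoring part of bacterial lipopolysaccharide, at 100 ng/ml for 25 min. The libraries are biological replicates 1 and 2 of 1 group, made from 500 ng and 1 µg of RNA, and the labels give both the same donor entry. No untreated, later or cytoplasmic library was analysed here, so every value is a level after lipid A in the nuclear compartment and none is a response. Sex and age are not given in the labels, and another label calls the fraction the nucleus.

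Lipid A is recognised by Toll-like receptor 4, whose signalling activates NF-kB and MAP kinases in macrophages. Ccl2, Ccl3, Ccl4, Ccl5 and Ccl7 are known as inducible ligands of that pathway, whereas Ccl6 and Ccl9 are rodent chemokines that macrophages make without such a stimulus. Ccl2 and Ccl7 act through Ccr2, the receptor that brings monocytes out of the bone marrow. Ccl3, Ccl5, Ccl6 and Ccl9 bind Ccr1, a receptor of monocytes, macrophages and neutrophils.

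The gene tables held 13506939 estimated counts for replicate 1 and 17932332 for replicate 2. Where a gene had 0 counts, up to 3 remain possible, which is 0.222 and 0.167 CPM (counts scaled to the library total). The members took 0.0646% of the counts in replicate 1 (95% Wilson interval 0.0632 to 0.0659) and 0.0971% in replicate 2 (0.0956 to 0.0985). These intervals cover counting error only. All 12 macrophage markers were detected, and their summed level was 4740 and 4044 TPM (a level per transcript length, scaled to the same total in each library). Detected means at least 1 TPM in both libraries.

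All 9 members were detected, against 44.5% of protein-coding genes and 22.5% of all annotated genes. Because the members were chosen with earlier results of these data known, their detection and median level may partly reflect that choice. Their median level was 5.97 and 6.19 on the log2(TPM + 1) scale in replicates 1 and 2, and that of all protein-coding genes was 0.82 and 0.52. By sum and by median the ligands were above the receptors, although Ccl5 was below Ccr1 in both libraries. The 7 ligands summed to 622 and 753 TPM and the 2 receptors to 17.6 and 15.8 TPM, and the ligands' median log2(TPM + 1) lay 3.69 ± 0.65 above that of the receptors (SD, n = 2 libraries). On the CPM scale, which does not divide by length, this difference was 1.74. With only 2 libraries, SDs describe the spread and no test was made.

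Ccl3 and Ccl4, which attract monocytes, T cells and NK cells, were the highest. Ccl3 had 192 and 185 TPM from 1444 and 2469 estimated counts, a mean of 188 ± 4.89 TPM (SD, n = 2). Ccl4 had 124 and 200 TPM from 755 and 2185 counts, a mean of 162 ± 53.6 TPM (SD, n = 2). Ccl3 was nearly level between the libraries while Ccl4 was higher in replicate 2, so their ranges overlap and their order changed between the libraries.

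Ccl9, a ligand of Ccr1 known for drawing dendritic cells and osteoclast precursors, followed with 106 and 119 TPM. It had the most counts of any member, 3997 and 7618, on the longest main transcript of the ligands (3006 bases). Its relative Ccl6 had 56.9 and 43.8 TPM from 577 and 837 counts, a mean of 50.3 ± 9.26 TPM (SD, n = 2). Ccl6 had the higher TPM in replicate 1, but its log2 ratio of replicate 2 to replicate 1 was 0.05 relative to the median of all countable genes. Ccl9 was below Ccl4 and above Ccl6 in both libraries, and neither pair of ranges overlaps.

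Ccl2 and Ccl7, the monocyte attractants, lie next to each other on chromosome 11. Ccl2 had 61.5 and 125 TPM from 627 and 2188 counts, a mean of 93.1 ± 44.7 TPM (SD, n = 2). Ccl7 had 77.0 and 71.8 TPM from 617 and 1017 counts, a mean of 74.4 ± 3.69 TPM (SD, n = 2). Ccl2 was below Ccl7 in replicate 1 and above it in replicate 2, so the levels of this pair do not differ beyond their spread, and neither do those of Ccl9 and Ccl2.

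Ccl5, a T cell and monocyte attractant that is known as a late gene of the lipopolysaccharide response, was the lowest ligand. It had 4.72 and 9.01 TPM from only 25 and 87 counts. The bounds deposited with the posterior mean of TPM were 2.98 to 6.55 in replicate 1 and 6.999 to 10.7 in replicate 2, and their level of confidence is not stated in the files or labels. For Ccl3 in replicate 1 the bounds were 167 to 186, below its TPM of 192, because they belong to the posterior mean (176 TPM).

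Ccr1, the receptor of Ccl3, Ccl5, Ccl6 and Ccl9, had 14.02 and 13.70 TPM from 502 and 833 counts. On the TPM scale its 2 libraries differed the least of the 9 members (SD 0.226 TPM). Relative to the median of all countable genes, its log2 ratio of replicate 2 to replicate 1 was 0.39. On that scale Ccl6 at 0.05 and Ccr2 at -0.14 differed the least. Ccr2, the receptor of Ccl2 and Ccl7, had 3.55 and 2.09 TPM from 178 and 173 counts and was the lowest member in both libraries. In the gene tables, from Ccl7 down, each member was above the next in both libraries without overlap, in the order Ccl7, Ccl6, Ccr1, Ccl5 and Ccr2.

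**Figure D1:**
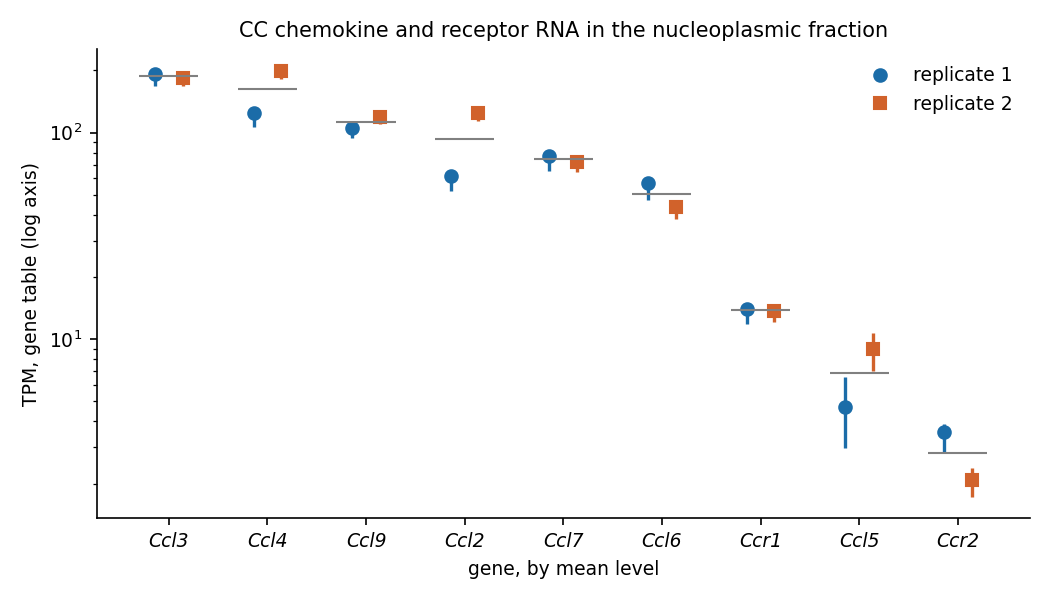
Level of each member in TPM on a log axis, genes ordered by mean level. Points are replicates 1 and 2, vertical lines the deposited bounds of the posterior mean TPM, and grey bars the mean of both libraries. Ccl4, Ccl2 and Ccl5 are visibly higher in replicate 2, and Ccr1 is level at 14.02 and 13.70 TPM.

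The alignment-free tables, which the authors made directly from the reads, gave another order at the top. Ccl9 led there with 157 and 70.9 TPM, followed by Ccl4 with 135 and 69.8 TPM and Ccl3 with 113 and 52.4 TPM. Of the Ccl9 level, the processed transcript Ccl9-202 held 111 and 49.1 TPM. The coding transcript of Ccl9 had 46.4 and 21.8 TPM, below Ccl4 and Ccl3. Over both libraries, a member's mean TPM in that table was between 0.310 (Ccr1) and 1.02 (Ccl9) of its mean in the gene table. Ccr2 had 2.93 and 0.854 TPM there, below the detection limit in replicate 2. By mean level the highest 3 members and the lowest are the same in both tables, but the order among Ccl3, Ccl4 and Ccl9 is not. Lower down, Ccl5 was above Ccr1 in alignment-free replicate 2, with 2.805 against 2.501 TPM, and below it in replicate 1.

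Of the other CC ligands, CC receptors and atypical relatives, 8 of 30 were detected. Ccrl2, an atypical receptor that binds chemerin, had 124 and 126 TPM and stood apart from the rest. Ccl12, a mouse ligand of Ccr2, had 7.49 and 25.9 TPM. Ccl25 had 19.6 and 10.3 TPM and its receptor Ccr9 had 2.61 and 1.84 TPM. Ccr3, the eotaxin receptor, had 2.30 and 1.61 TPM. The lowest detected were Ccl8, another ligand of the Ccl2 kind, with 1.48 and 2.26 TPM, and the scavenging receptor Ackr4 with 1.43 and 1.14 TPM. Of the 16 other ligands 7 were at 0 TPM in both libraries, among them Ccl17 and Ccl19.

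**Figure D2:**
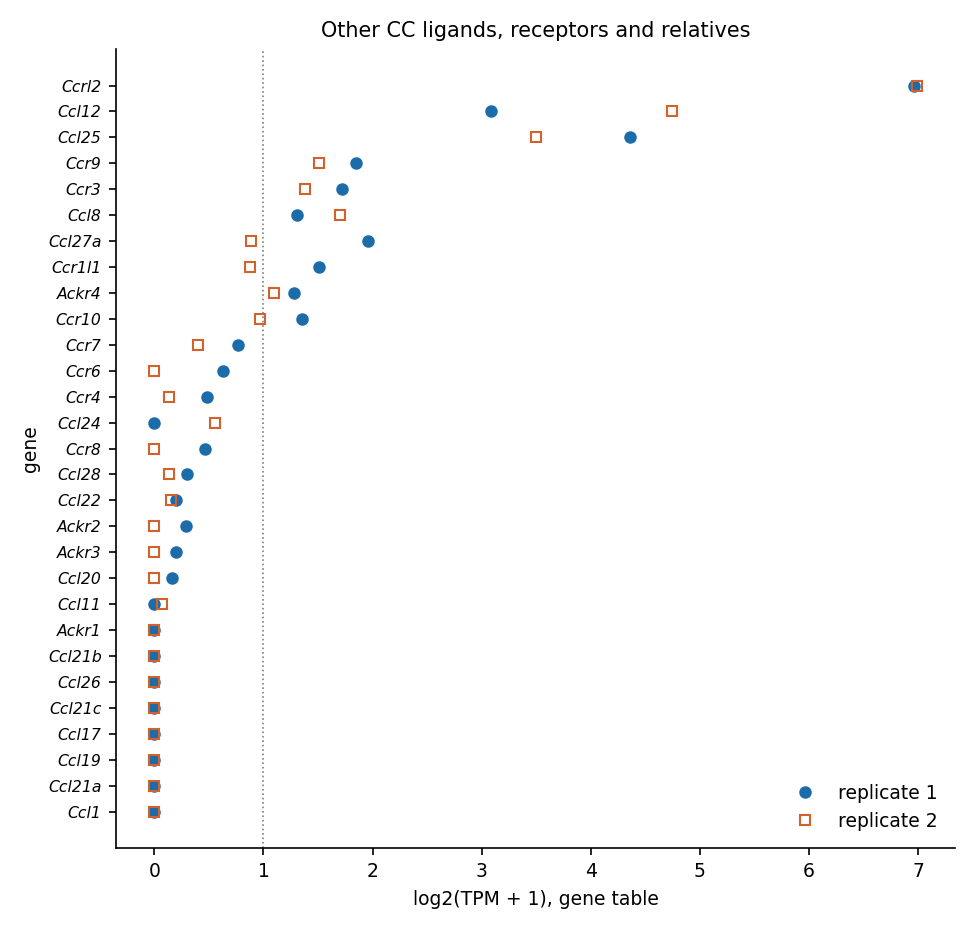
Level of 29 other family genes on the log2(TPM + 1) scale, highest mean at the top. Filled circles are replicate 1 and open squares replicate 2, and the dotted line marks 1 TPM. Ccrl2 is far to the right, and 8 genes lie at 0 in both libraries.

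The genes that carry the signal below these receptors were mostly present: 24 of 26 were detected. Rgs1, which shortens signalling by G proteins, had 296 and 256 TPM. Dock2, the Rac activator that drives leukocyte migration, had 176 and 117 TPM. Arrb2, an arrestin that takes receptors off the surface, had 133 and 130 TPM. Pik3r5, the regulatory subunit of phosphoinositide 3-kinase gamma, had 136 and 125 TPM. Like most of the 26 genes, these 4 lay above both receptors in both libraries. Grk2, a kinase that marks active receptors for arrestins, had 77.1 and 44.4 TPM, and the G protein subunit gene Gnb2 had 69.1 and 68.2 TPM. At the low end, Gnai1 was at 0 TPM in both libraries and Rgs16 had 0.89 and 0.49 TPM.

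Markers of other cell types that make or answer these chemokines were mostly near the floor in the gene tables, with the exception of Pf4. Of 8 T and NK cell markers none was detected, their summed level was 0.48 and 0.16 TPM, and Cd3e, Trbc2 and Gzma were at 0. In the alignment-free tables Cd3d, which had 0.10 and 0.03 TPM in the gene tables, had 8.72 and 1.10 TPM and so passed the limit there. Of 6 monocyte markers 2 were detected, Ccr2 itself and Chil3, and the sum, Ccr2 included, was 8.57 and 4.57 TPM. Ly6c2, the surface marker of classical monocytes, had 1.38 and 0.40 TPM. Of 8 neutrophil markers 2 were detected, with a sum of 3.71 and 3.62 TPM and Ly6g and Retnlg at 0. None of 5 dendritic cell markers (summed level 3.23 and 1.18 TPM), 4 B cell markers (1.13 and 0.83 TPM), 4 mast cell and basophil markers (0.12 and 0.20 TPM) or 5 fibroblast markers (4.29 and 0.24 TPM) was detected. Of 4 megakaryocyte markers 2 were detected, with a sum of 73.8 and 51.5 TPM, of which Pf4 held 70.3 and 48.3 TPM. The part of other cells in the Ccr2 level was not tested, and in bulk RNA fewer cells of a type and less RNA per cell cannot be told apart.

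Transcripts annotated as retained intron, meaning that a stretch of intron is part of the transcript, exist for 3 of the 9 members, Ccl2, Ccl5 and Ccl6. Among protein-coding genes 41.4% have such a transcript. In Ccl2 the retained-intron transcript took 61.6% of the gene's counts in replicate 1 (95% Wilson interval 57.7 to 65.3) and 57.1% in replicate 2 (55.0 to 59.1). In Ccl5 it took 60.2% (40.7 to 76.6) and 61.1% (50.4 to 70.5), from 25 and 87 counts, and in Ccl6 the 2 such transcripts together took 35.2% (31.4 to 39.2) and 30.8% (27.8 to 34.03). The median share was 17.4% over the 6879 protein-coding genes that have such a transcript and reach 10 counts in each library, and 14.9% of genes had over 50%. Ccl2 had a higher share than 90.3% of these genes, Ccl5 than 90.9% and Ccl6 than 71.0%. These ranks are for the aligned counts only. By the alignment-free counts the shares were 53.5% and 51.1% in Ccl2, 78.1% and 68.5% in Ccl5 and 49.4% and 42.0% in Ccl6.

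The stretches of intron in these transcripts are shown at the splice sites they cross. Reads over these junctions can come from a retained intron or from RNA not yet spliced, and the shares cannot tell these apart. Each window has 24 exon bases in lower case and 36 intron bases in capitals, on the gene's strand in mm10. Ccl2-202 keeps all 325 bases of intron 2 of 2, and both its splice sites are crossed. The donor window lies at chr11:82036577-82036636 and the acceptor window at chr11:82036890-82036949, on the + strand.
Ccl2 intron 2 donor: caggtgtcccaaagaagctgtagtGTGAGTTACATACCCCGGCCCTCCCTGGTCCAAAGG
Ccl2 intron 2 acceptor: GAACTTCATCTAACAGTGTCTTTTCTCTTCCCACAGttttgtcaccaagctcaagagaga

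Ccl5-202 runs 428 bases into intron 2, which is 3091 bases long, and ends there. Ccl6-202 begins 71 bases before the end of intron 1 and crosses its acceptor, and Ccl6-203 runs 284 of 342 bases into intron 2. The Ccl5 window lies at chr11:83529120-83529179, the Ccl6 acceptor window at chr11:83589781-83589840 and the Ccl6 donor window at chr11:83589721-83589780, all on the - strand. All 3 donors shown here begin with GT and both acceptors end in AG.
Ccl5 intron 2 donor: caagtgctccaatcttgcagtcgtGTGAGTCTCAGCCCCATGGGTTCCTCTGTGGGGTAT
Ccl6 intron 1 acceptor: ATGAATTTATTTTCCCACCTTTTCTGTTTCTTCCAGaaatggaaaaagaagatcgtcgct
Ccl6 intron 2 donor: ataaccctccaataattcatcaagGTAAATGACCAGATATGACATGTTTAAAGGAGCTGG

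As percent of the gene's TPM in the aligned transcript tables, Ccl2-202 took 52.1% and 47.8% and the coding transcript 47.9% and 52.2%. Neither transcript of Ccl2 led in both libraries on this scale. Ccl5-202 took 51.4% and 53.1%. In Ccl6 the coding transcript took 39.2% and 45.9%, Ccl6-202 36.9% and 34.9%, and the short Ccl6-203 23.9% and 19.2%. Ccl3, Ccl4, Ccl7 and Ccr1 have 1 annotated transcript each. Over all 9 members the retained-intron share of counts was 6.93% and 8.96%, against 15.1% and 16.0% over all protein-coding genes. Intron sequence outside annotated transcripts has no entry in these tables, so the shares describe annotated transcripts only.

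Ccl9 and Ccr2 have transcripts of other kinds on which the tables differ. Ccl9-202, a processed transcript of 398 bases, took 1.20% and 1.02% of the gene's TPM in the aligned tables and 70.5% and 69.2% in the alignment-free tables. By counts the alignment-free share was 13.6% and 15.3%. Of the 368 words of 31 bases in Ccl9-202, 39 are not in the coding transcript. Ccr2-202, a transcript with 1 exon, took 73.0% and 58.2% of the Ccr2 TPM in the aligned tables, against 48.8% and 24.3% in the alignment-free ones. There another coding transcript, of 2999 bases and 3 exons, led in replicate 2 with 55.4%.

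**Figure D3:**
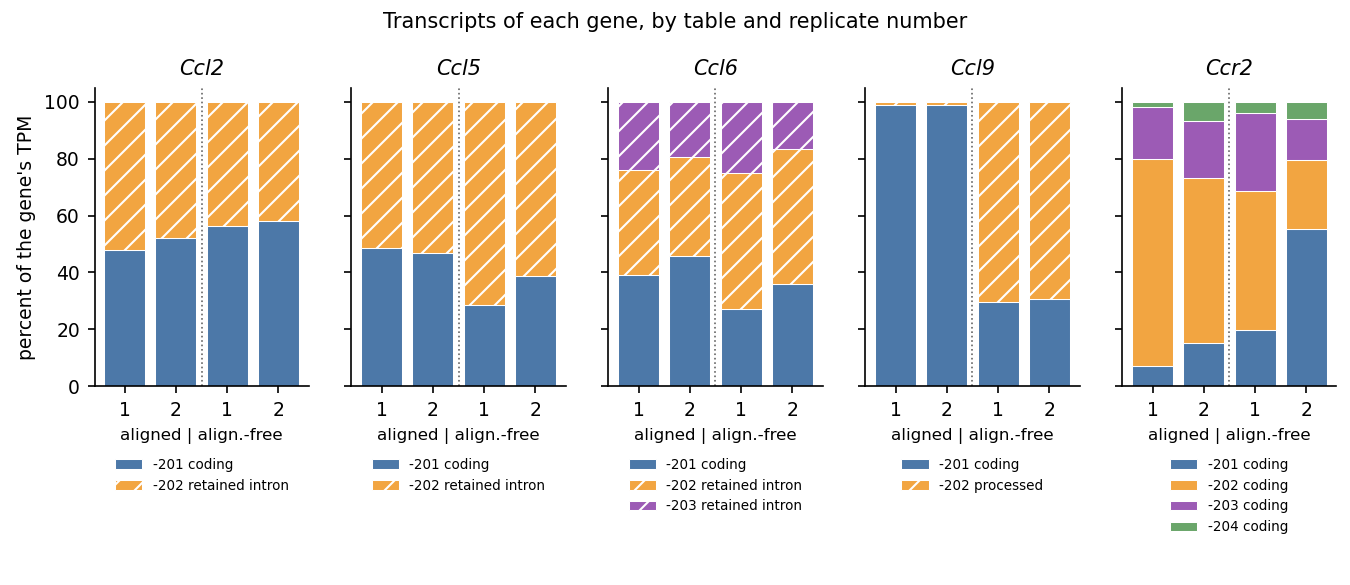
Percent of each gene's TPM in its annotated transcripts, for replicates 1 and 2 in the aligned table (left of the dotted line) and the alignment-free table (right of it). Hatched parts are retained-intron transcripts, or the processed transcript in Ccl9. The Ccl9-202 part is 1.20% and 1.02% on the left and 70.5% and 69.2% on the right.

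Sequence shared between genes limits how well their reads can be told apart. Of the members' words of 31 bases, none of Ccl2, Ccl3, Ccl4 or Ccl7 occurs in another gene, and at most 3.98% do (Ccl9). For Ccr2 the share was 3.48%. Its counts (177.51 and 173.35) are not whole, so some of its reads were split with other genes. The posterior SD of the Ccr2 count was 0.63 and 0.56, and it was 0 for every other member. The closest pairs of members in coding sequence were Ccl3 and Ccl4 with 67.0% and Ccl6 and Ccl9 with 64.8% identity. On the opposite strand, Gm17268 spans Ccl2 and had 0 counts in both libraries, and E230016K23Rik spans Ccl6 and had 12 and 10 counts. The files and labels do not state whether reads were counted by strand.

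AU-rich elements in the 3′ UTR mark many cytokine mRNAs for fast decay, and their core is the pentamer ATTTA. It was counted on the sense strand of the main coding transcript, overlaps included. Ccl3 has 5 in a 3′ UTR of 409 bases, and 0.933% of 2037 genes with a 3′ UTR of like length have as many. Ccr2 has 8, which 16.6% of genes of like length reach, Ccl9 has 5 (45.3%) and Ccl6 has 4 (16.8%). Ccl4 and Ccl7 have 2 each (13.1% and 19.6%), Ccl2 and Ccr1 have 1 each (35.6% and 82.3%) and Ccl5 has 0. Of 19677 genes 63.6% have the pentamer, and the overlapping form ATTTATTTA, present in 5.50% of them, is in none of the 9 members. In Ccl9 a window of 30 bases with 2 pentamers lies at 3′ UTR bases 2110 to 2139. For Ccl3 and Ccl6 the first window of 30 bases with the most pentamers, 2, is shown, with the pentamers in capitals.
Ccl3 3′ UTR bases 139 to 168: gactcttcacttgaaattttATTTAATTTA
Ccl6 3′ UTR bases 65 to 94: ccttgtttttatagatATTTAaagcATTTA

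Promoters in RefSeq's GRCm38.p6 table, 250 bases before to 50 after the start site, were found for Ccl3, Ccl6, Ccl9, Ccr1 and Ccr2. Ccl2, Ccl4, Ccl5 and Ccl7 were not matched. Motifs were searched on both strands among 32851 promoters. TATAA is in 3 of the 5 (Ccl3, Ccl9 and Ccr2) and in 24.9% of all promoters. The AP-1-like pattern TGANTCA, with any base at N, is in Ccl9 only, as TGAATCA, and in 7.81% of all. The kB motif is in Ccl9 and Ccr1 and in 8.46% of all. The PU.1 motif GAGGAAGT is in none of the 5 and in 3.20% of all. TTATAA holds TATAA on both strands, so such matches overlap. These are matches of letters, with no binding measured.

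The promoters of 2 of the 3 highest members and of the lowest are shown with their matches in capitals. In Ccl3 (chr11:83649329-83649628, - strand) TATAA lies at -11 to -7 from the RefSeq start site, with a further match on the other strand. The GENCODE start of Ccl3, at chr11:83649355, lies downstream of that start site. From the GENCODE start, TATAA lies further upstream than these positions show. In Ccl9 (chr11:83578587-83578886, - strand) the AP-1-like match lies at -53 to -47 and the kB match at -35 to -26. In Ccr2 (chr9:124101933-124102232, + strand) TATAA lies at -207 to -203. The start site of this Ccr2 window is that of the coding transcript of 2999 bases. That transcript took 6.95% and 15.1% of the Ccr2 TPM in the aligned tables in replicates 1 and 2. Ccr2-202, which took 73.0% and 58.2% there, starts downstream of this window, at chr9:124105626. The sequence shown is therefore not the promoter of Ccr2-202.
Ccl3 promoter: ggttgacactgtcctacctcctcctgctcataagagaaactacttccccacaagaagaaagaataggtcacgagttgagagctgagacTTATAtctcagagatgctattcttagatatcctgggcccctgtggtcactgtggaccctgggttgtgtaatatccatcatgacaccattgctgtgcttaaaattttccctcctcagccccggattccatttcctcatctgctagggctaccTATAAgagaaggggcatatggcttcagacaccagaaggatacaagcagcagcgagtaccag
Ccl9 promoter: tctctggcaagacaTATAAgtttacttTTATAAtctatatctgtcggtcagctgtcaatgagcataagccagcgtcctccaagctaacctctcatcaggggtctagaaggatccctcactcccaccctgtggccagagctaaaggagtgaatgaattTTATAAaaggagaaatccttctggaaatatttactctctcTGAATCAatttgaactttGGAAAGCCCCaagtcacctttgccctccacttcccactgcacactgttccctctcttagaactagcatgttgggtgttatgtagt
Ccr2 promoter: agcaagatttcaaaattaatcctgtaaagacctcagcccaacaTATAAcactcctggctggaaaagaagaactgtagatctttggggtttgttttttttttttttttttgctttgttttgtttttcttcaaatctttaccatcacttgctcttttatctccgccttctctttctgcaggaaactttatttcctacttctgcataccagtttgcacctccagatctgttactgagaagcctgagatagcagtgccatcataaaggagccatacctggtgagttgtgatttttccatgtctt

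The Ccl6 and Ccl9 promoters share a segment of 74 aligned columns with 78.4% identity, at -59 to 15 in Ccl6 and -18 to 49 in Ccl9, so it sits at different distances from the 2 annotated starts.

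Between the libraries, Ccl2, Ccl4 and Ccl5 differed most. The ratio of replicate 2 to replicate 1 was taken on log2(TPM + 1) and given relative to the median of -0.42 over the 14584 genes that reached 10 counts in each library. Of the 9 members 3 were over 2-fold higher in replicate 2, against 1.22% of genes, and 0 were over 2-fold lower, against 0.487%. The log2 ratio of Ccl2 was 1.43 (95% Clopper-Pearson counting interval 1.302 to 1.561), that of Ccl5 was 1.23 (0.57 to 1.93) and that of Ccl4 was 1.11 (0.99 to 1.23). Altogether 8 of the 9 were above the median of all genes, against 50% by the definition of a median, and Ccr2 was below it at -0.14 (-0.45 to 0.18). Ccl9 followed at 0.59, Ccr1 at 0.39, Ccl3 at 0.37, Ccl7 at 0.32 and Ccl6 at 0.05.

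Scaling by TMM or by DESeq2 size factors also gave 3 members over 2-fold higher. The share of all genes over 2-fold higher is not given for these scalings, so this count has no background. The median log2 ratio over all countable genes was 0.033 with TMM and 0.053 with DESeq2. By the alignment-free values 0 of the 9 were over 2-fold higher, against 2.71% of 23020 genes. Ccl2 was at 0.87 there, Ccl5 at 0.58, Ccl4 at 0.25 and Ccl6 at -0.44, and 8 of the 9 were above that table's median. Ccl12, the neighbour of Ccl2 outside the member list, had the log2 ratio 2.09 in the gene table and 1.13 in the alignment-free one. The members with the 3 highest ratios have a mean transcript length of 500 to 1000 bases, and 3.60% of the 1361 genes in that range were over 2-fold higher, against 0.473% of those of 2000 to 4000 bases. Ccl3, Ccl6 and Ccl7 lie in the same length range, with ratios of 0.37, 0.05 and 0.32. The part of transcript length was not tested, and the amount of starting RNA cannot be told apart from the replicate.

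**Figure D4:**
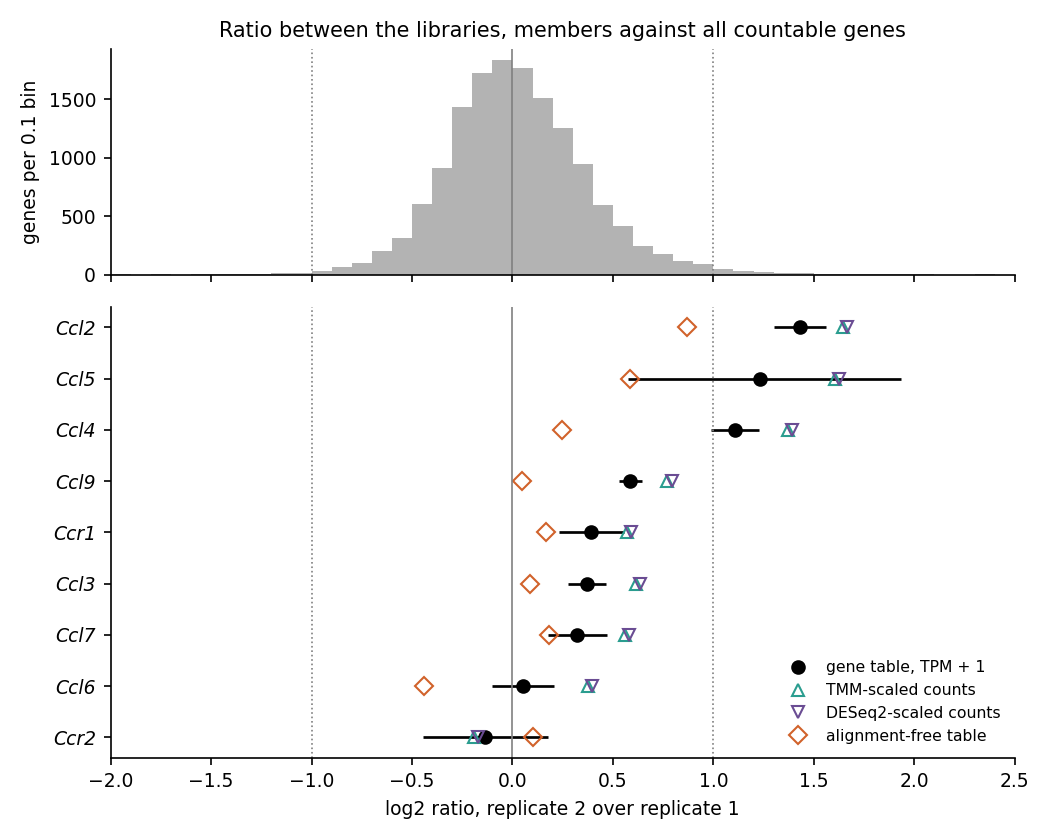
Top, number of genes per bin of 0.1 in the log2 ratio of replicate 2 to replicate 1, relative to the median. Bottom, the members' ratios in the gene table with 95% counting intervals (black), with TMM and DESeq2 scaling (triangles) and in the alignment-free table (diamonds), where dotted lines mark 2-fold. Ccl2, Ccl5 and Ccl4 lie right of the 2-fold line in the gene table and left of it in the alignment-free table.

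The members lie in 3 clusters, and levels within a cluster were uneven. On chromosome 11 the cluster from Ccl2 to Ccl1 spans 270 kb. Ccl2 and Ccl7, with start sites 10.1 kb apart, were high, Ccl11 between Ccl7 and Ccl12 had 0 and 0.05 TPM, and Ccl1 was at 0. The cluster from Ccl5 to Ccl4 spans 139 kb of the same chromosome and holds members only among its CC genes. Ccl3 and Ccl4 lie there on opposite strands and are transcribed away from each other, and Ccl5 at the far end was the lowest. Both receptors lie on chromosome 9, with the start site of Ccr2 139.8 kb from the first base of Ccr1. Ccr1 was at about 14 TPM, whereas Ccr3 and Ccr2 were below 4 TPM in both libraries.

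**Figure D5:**
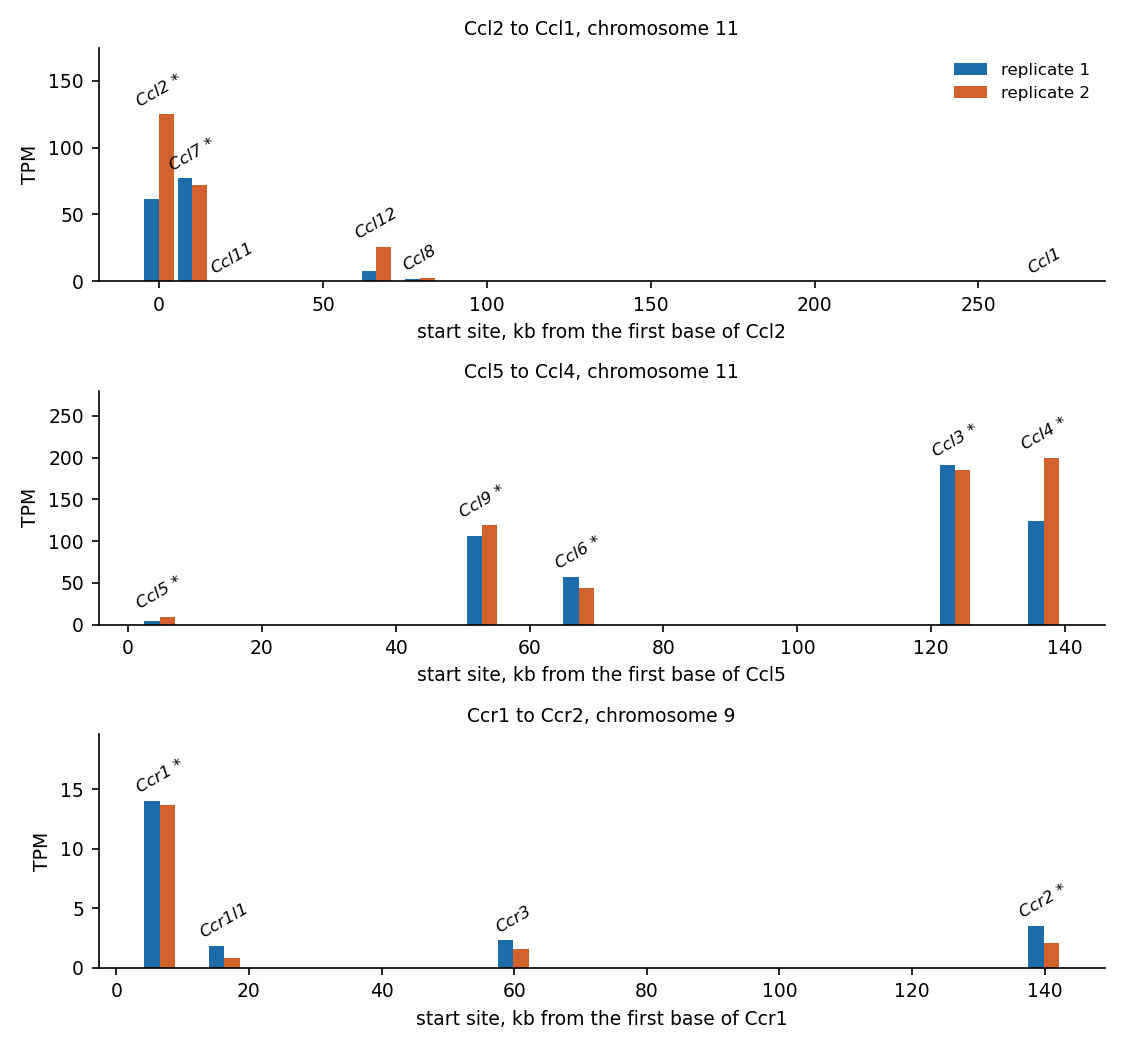
TPM of CC genes in 3 clusters against the start site in kb from the first base of the cluster, with a bar for each replicate. Members carry an asterisk. Ccl2 and Ccl7 stand at the left end of the upper cluster, Ccl3 and Ccl4 at the right end of the middle one, and Ccr1 at the left end of the lower one.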

How the data were processed

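Total RNA-seq of 2 libraries was analysed. Per the deposited readme, reads were aligned to the transcriptome with assembly mm10 and GENCODE M21. The gene tables hold expected counts and TPM made by the authors, and the aligned transcript tables also give each transcript's percent of its gene's TPM, per the file headers. The bounds of TPM and its posterior mean, used as score columns, were deposited as well. The alignment-free tables hold the authors' estimated counts and TPM. The quantifiers are not named in the sources used here, and the replicates were not pooled.

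Rows of no annotated gene were left out: 26248 numbered rows (0.000288% and 0.000189% of counts in replicates 1 and 2) and 97 spike-in rows (0.35% and 0.0784%). TPM was used as deposited. Total depth was 13506939 and 17932332 counts. Both libraries form 1 group, so no test and no p-value was computed. Ratios used TPM + 1 and genes reaching 10 counts in each library. For edgeR 4.0.16 (TMM) and DESeq2 1.42.0 in R 4.3.3, expected counts were rounded to whole numbers. Finding genes beyond 2-fold was checked on simulated data with counting noise only. The simulation had no variation between replicates beyond that, so it lends the members' ratios no support. Sequences came from GENCODE M21 transcripts and RefSeq's GRCm38.p6 promoter table, read with Python 3.11.15. Shared sequence was counted in words of 31 bases.

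The members and lists were chosen with earlier results of these data known. Named are all members, the other family genes at 1 TPM or more in both libraries, and the 6 highest and 2 lowest signalling genes. Ccl11, Ccl1, Ccl17 and Ccl19, which fall outside this rule, were named after their values were seen. A gene of the wider family is included in counts and not otherwise reported here. Promoter motifs and 3′ UTR counts are descriptions. Searches for the CEBP and IRF motifs were dropped after the data were seen. Alternatives were other pseudocounts, minimums, scalings, tables and each library alone.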

Additional observations from a re-analysis of the deposited data

How the results depend on the processing

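No paired analysis was possible because both libraries belong to 1 group. All 9 members were detected in each library alone, 7 at a minimum of 5 TPM, 9 at a minimum of 10 counts and 8 in the alignment-free table. The share of all genes at these other limits is not given, so these counts have no background. The count of other family genes, 8, fell to 4 at a minimum of 5 TPM and to 4 in the alignment-free table. It was 8 without replicate 1 and 11 without replicate 2. The members' median log2 level, 6.08 as the mean of both libraries, was 6.59 with TPM rescaled without mitochondrial genes and genes under 200 bases, 5.70 with CPM, 5.42 as a mean over genes and 4.72 by the alignment-free values. With 1 library left out it ranged from 5.97 to 6.19. The ligand minus receptor difference, 3.69, was 1.74 with CPM, which does not divide by length, and ranged from 3.24 to 4.15 with 1 library left out. The members' median ratio, 0.39, was 0.61 with TMM, 0.63 with DESeq2 and 0.17 in the alignment-free table. It reversed to -0.0311 for TPM ratios as they are, which are not centred on the median, and to -0.0311 with no filter, where the median over all genes is 0. The members' retained-intron share, 7.94% of counts, was 11.1% of TPM, and 6.93% to 8.96% with 1 library left out. Of the 9 member levels 7 moved by more than the spread between the libraries in the alignment-free table and 7 with rescaled TPM. Rescaling multiplied every member's TPM by the same factor, 1.45 in replicate 1 and 1.43 in replicate 2. The cause of the moves by the alignment-free values was not tested. Depth limits Ccl5 most, with 25 and 87 counts.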
